A study of Mus musculus with 4 samples.

Results

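Forkhead genes encode transcription factors that bind DNA through a winged-helix domain, and 9 of them with known roles in lung development were examined for peaks of HOXA5, a homeodomain transcription factor of the HOXA cluster. They were Foxf1, Foxf2, Foxp1, Foxp2, Foxp4, Foxa1, Foxa2, Foxj1 and Foxm1, chosen by name out of 21775 protein-coding genes. A peak was counted for a gene when its summit lay inside the gene's annotated span, or within 100 kb of it with that gene as the nearest protein-coding gene. Of 4289 peaks in replicate 1, 5 met this rule, and of 2832 peaks in replicate 2, 3 did. Both libraries were anti-FLAG immunoprecipitates of chromatin from whole lungs of E15.5 mouse embryos (day of gestation), with the genotype Hoxa5FLAG/FLAG, in which both copies of Hoxa5 carry the epitope tag in the endogenous gene. The titles name the lungs wt, but their genotype is labelled as the tagged allele, which was followed here. In the replicate 2 list, the names of peaks hold a replicate number that differs from the label. The 2 input libraries and any untagged lungs were not analysed here, so a peak cannot be set against background at the same place. Whether the 2 replicates were separate litters or pools is not stated in the labels, so what they have in common may be technical. In a whole organ, strong occupancy in few cells and weak occupancy in many cells cannot be told apart.

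In the embryonic lung, Foxf1 and Foxf2 are expressed in the mesenchyme, where Foxf1 acts downstream of hedgehog signals from the epithelium and is also needed for lung blood vessels. Foxa1 and Foxa2 open chromatin in the epithelium derived from endoderm, Foxj1 drives the formation of motile cilia, and the Foxp proteins are mainly repressors of the airway and distal epithelium. Foxp1 is also expressed outside the epithelium. Foxm1 drives entry into mitosis and is expressed in dividing cells of any layer. HOXA5 itself is known from mouse studies as a factor of the lung mesenchyme. Foxf1 and Foxf2 are called mesenchymal here, Foxa1, Foxa2, Foxj1, Foxp1, Foxp2 and Foxp4 epithelial, and Foxm1 stands in neither class.

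The fold enrichment given with each peak is the authors' ratio at the summit, and −log10 q is their significance value there. Each is read only inside the list it comes from. The median fold was 3.87 in replicate 1 and 3.36 in replicate 2. A replicate 1 peak and a replicate 2 peak with any base in common formed a shared peak, and there were 2175 shared peaks with a median fold of 4.23 in replicate 1 and 3.63 in replicate 2. The files hold no read counts, so the depth is unknown. All positions are in mm10.

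HOXA5-FLAG peaks found in both replicates lay at 2 of the 9 genes, Foxf2 and Foxp1. Of all protein-coding genes, 5.97% had a shared peak by the same rule. In replicate 1, 4 of the 9 genes had a peak (Foxf1, Foxf2, Foxp1 and Foxp2), beside 10.4% of all protein-coding genes, and in replicate 2, 2 of the 9 had a peak, beside 7.58%. Foxp4, Foxa1, Foxa2, Foxj1 and Foxm1 had no peak in either list. These shares are not corrected for the length of sequence from which a gene can receive a peak, its territory, which is given below for each gene. Per Mb of territory the 9 genes had 1.43 shared peaks, from 3 peaks, beside 0.824 for all protein-coding genes. In replicate 1 they had 2.38 peaks per Mb beside 1.67, and in replicate 2 they had 1.43 beside 1.09. These differences were not tested.

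**Figure D1:**
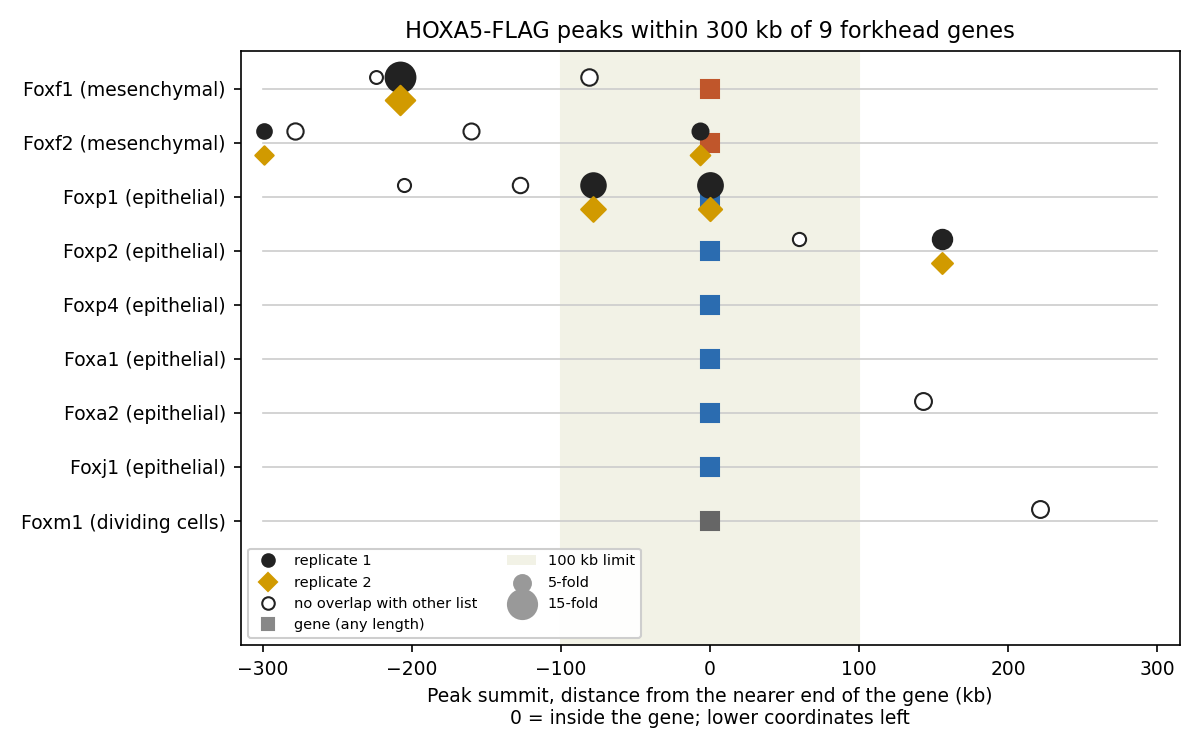
Peaks within 300 kb of each of the 9 forkhead genes, with the distance of the summit from the nearer end of the gene in kb on the horizontal axis, circles for replicate 1 above each line and diamonds for replicate 2 below it. Symbol area is proportional to fold enrichment, open symbols have no overlapping peak in the other list, and the shaded band is the 100 kb limit. Filled pairs stand within the band at Foxf2 and Foxp1, and outside it at 208.2 kb from Foxf1, 155.5 kb from Foxp2 and 299.2 kb from Foxf2.

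Foxf2 (chromosome 13, 31625816 to 31631406) had 1 shared peak close to its start. In replicate 1 the peak covered 31618905 to 31619230 with 4.50-fold enrichment and a −log10 q of 15.6. In replicate 2 it covered 31618888 to 31619165 with 3.42-fold enrichment and a −log10 q of 8.03. The summits lay 3 bp apart and the peaks shared 261 bp. The replicate 1 summit stood 6.77 kb before the annotated start of Foxf2, in sequence that no RefSeq gene covers. This was a peak of middling height, since 63.7% of replicate 1 peaks and 52.1% of replicate 2 peaks had a lower fold. The territory of Foxf2 was 125.6 kb. Of all protein-coding genes, 3.92% had a shared peak nearer to their span than Foxf2 did.

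Foxf1 (chromosome 8, 121084386 to 121088154) had a peak by the rule in replicate 1 alone. It covered 121002832 to 121003173, 81.4 kb from the gene on the low-coordinate side, with 4.79-fold enrichment and a −log10 q of 19.4. This call is lost when the nearest of all RefSeq genes is taken, since the noncoding gene Gm33579 lay nearer, and 3 of the 9 genes then had a replicate 1 peak. The share of all protein-coding genes under that changed rule was not computed. The territory of Foxf1 was 105.5 kb. Replicate 2 had no peak there, and its nearest summit to Foxf1 lay 208.2 kb away. That more distant peak was found in both lists and was the highest in either list within 300 kb of any of the 9 genes. In replicate 1 it covered 120875895 to 120876599 with 15.7-fold enrichment, a −log10 q of 174 and rank 80 of 4289 by fold. In replicate 2 it covered 120875992 to 120876527 with 7.69-fold enrichment, a −log10 q of 60.0 and rank 130 of 2832, and the summits lay 2 bp apart. It fell in the 327.7 kb gap between Foxf1 and Irf8, a transcription factor gene of myeloid cells, at 119.5 kb from Irf8. It was therefore beyond the limit for either gene, and Irf8 was the nearer of them. Its summit lay 1.60 kb from the listed start site of Gm33368, a long noncoding RNA gene. The same gap held a weaker replicate 1 peak of 2.94-fold, inside the noncoding gene Gm39267, with no partner in replicate 2.

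Foxp1 (chromosome 6, 98925342 to 99522746) had 2 shared peaks, both among the higher peaks of their lists. The peak inside the gene covered 99484976 to 99485475 in replicate 1, with 10.8-fold enrichment and a −log10 q of 105. In replicate 2 it covered 99485074 to 99485481, with 4.78-fold enrichment and a −log10 q of 24.8. The summits lay 7 bp apart, 37.5 kb from the high-coordinate end of the span and 35.8 kb from the nearest of the 3 listed Foxp1 start sites. Foxp1 is read from high to low coordinates, so this summit was downstream of that start site, within the transcribed span. Exons and introns could not be told apart, because no exon positions were used here.

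The other Foxp1 peak lay beyond the low-coordinate end of the gene, 78.8 kb away and so on the 3′ side. It covered 98846261 to 98846767 in replicate 1 with 10.6-fold enrichment and a −log10 q of 78.1. In replicate 2 it covered 98846362 to 98846643 with 5.41-fold enrichment and a −log10 q of 25.4, and the summits lay 6 bp apart. In replicate 1 the intragenic peak ranked 208 and the 3′ peak 220 of 4289 by fold, and in replicate 2 they ranked 500 and 331 of 2832. The order of the peaks by fold thus differed between the lists. On the same side of Foxp1, replicate 1 held further peaks at 127.8 kb (4.21-fold) and 205.3 kb (3.02-fold), neither with a partner in replicate 2.

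Foxp1 is a long gene, and the part of its length in its count was not tested. Its territory, the sequence within which a summit would be assigned to it, was 747 kb, more than that of 99.3% of protein-coding genes. Its 2 shared peaks put it among the 201 protein-coding genes with at least 2. Foxp2, a paralogue with a territory of 713.7 kb, had no shared peak. All protein-coding genes had 0.824 shared peaks per Mb of territory. The difference between Foxp1 and Foxp2 was not tested. The genes most like Foxp1 were taken as those with the same number of shared peaks and the smallest summed difference in log2 of their highest fold in the 2 lists. The highest folds of Foxp1 were 10.8 in replicate 1, inside the gene, and 5.41 in replicate 2, on the 3′ side. The nearest to it were Hivep3 (10.9-fold in replicate 1 and 5.78-fold in replicate 2, summed log2 difference 0.10), Ablim3 (10.6 and 5.04, 0.14) and Ctnnd2 (11.6 and 5.00, 0.21). Hivep3 encodes a zinc finger protein, Ablim3 an actin-binding protein and Ctnnd2 a catenin.

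Foxp2 (chromosome 6, 14901349 to 15441977) had no peak inside its span in either list. By the rule it had 1 replicate 1 peak, at 15501162 to 15501470, 59.3 kb beyond the high-coordinate end, with 3.09-fold enrichment and a −log10 q of 5.85. This was among the weaker peaks, with 27.2% of the replicate 1 list lower in fold, and replicate 2 had none there. A shared peak lay farther out on the same side, 155.5 kb from Foxp2 and 123.1 kb from Mdfic, which was the nearer gene. It had 6.63-fold enrichment over 1032 bp in replicate 1 and 3.88-fold over 570 bp in replicate 2. Foxp4 (chromosome 17, 47867133 to 47924632), the remaining Foxp gene, had its nearest summit at 916.4 kb in replicate 1 and at 1803 kb in replicate 2, with a territory of 129.8 kb.

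The pioneer factor genes and the ciliogenesis regulator had no peak by the rule. Foxa2 (chromosome 2, 148042877 to 148046969) was the nearest protein-coding gene to a replicate 1 peak at 142.5 kb, with 5.04-fold enrichment, which lay outside the limit and had no partner. Its nearest shared peak was 325.2 kb away. Foxa1 (chromosome 12, 57540628 to 57548029) had its nearest summit at 1488 kb in replicate 1 and at 572.2 kb in replicate 2. Foxj1 (chromosome 11, 116330704 to 116335499) had the most distant peaks of the 9 genes, at 1863 kb in replicate 1 and 1955 kb in replicate 2, and 90.3% of protein-coding genes had a shared peak nearer to them. Foxm1 (chromosome 6, 128362994 to 128375886), the cell division gene, had its nearest peak in replicate 1 at 221.2 kb, where Klrb1a was the nearest gene, and in replicate 2 at 310.7 kb. Foxj1 and Foxm1 lie among close neighbours and had territories of 17.2 kb and 12.9 kb. With every gene within 100 kb counted, nearest or not, each still had 0 shared peaks. The part of territory in their lack of a peak was not tested. Foxa1 had 49.1 kb, near the 45.8 kb median of protein-coding genes, and Foxa2 had 204.1 kb without a peak.

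Around the limit, the peaks farthest from a gene but still counted were those at 78.8 kb from Foxp1 and 81.4 kb from Foxf1. The nearest left out, among those with a forkhead member as nearest gene, were at 127.8 kb from Foxp1 and 142.5 kb from Foxa2. When any peak within 300 kb was counted, whichever gene was nearest, replicate 1 held 15 peaks and replicate 2 held 6. Of these, 6 were shared, and Foxf1, Foxf2, Foxp1 and Foxp2 then had a shared peak, 4 of 9 genes (44.4%) beside 34.7% of protein-coding genes. In replicate 1, 6 of 9 genes had such a peak beside 54.2% of protein-coding genes, and in replicate 2, 4 of 9 beside 42.3%. These shares are close to the background. The window of 300 kb was chosen after the data were seen.

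**Figure D2:**
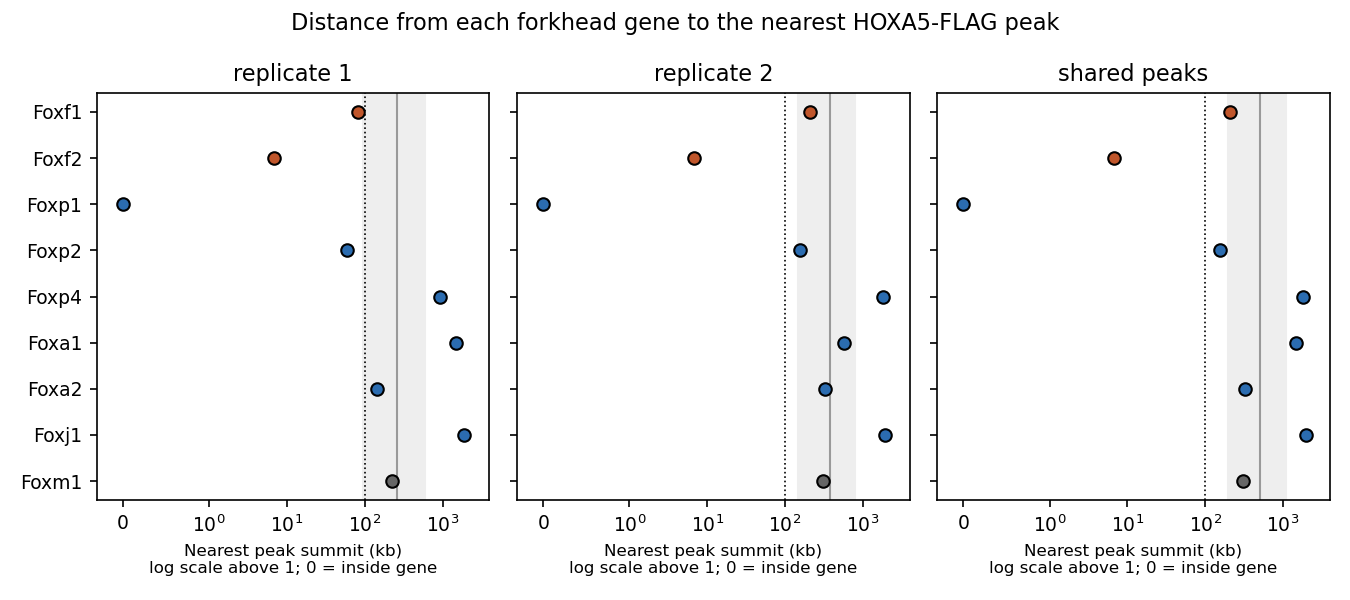
Distance from each forkhead gene to its nearest peak summit in kb (log scale above 1 kb, 0 inside the gene), in replicate 1, replicate 2 and among shared peaks, with mesenchymal genes in orange, epithelial genes in blue and Foxm1 in grey. The grey band is the middle 50% of all 21775 protein-coding genes with their median as a line, and the dotted line is the 100 kb limit. Foxp1 stands at 0 and Foxf2 at 6.77 kb in all panels, while Foxj1 stands at 1863 kb or more.

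Across the 9 genes the median distance to the nearest shared peak was 310.8 kb (range 0 to 1955 kb), and across all protein-coding genes it was 503.0 kb. In both lists, and among shared peaks, 6 of the 9 genes were nearer than the median of all protein-coding genes. Foxp4, Foxa1 and Foxj1 were the others.

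The peaks of the 9 genes overlapped between replicates as follows. Of 5 replicate 1 peaks, 3 overlapped a replicate 2 peak (60.0%, 95% exact Clopper-Pearson interval 14.7 to 94.7), beside 51.2% of all replicate 1 peaks. Of 3 replicate 2 peaks, all 3 overlapped a replicate 1 peak (interval 29.2 to 100), beside 77.6% of the whole list. With so few peaks the intervals cover the shares of the whole lists, and they describe counting error only. The unmatched replicate 1 peaks, at Foxf1 and Foxp2, had 4.79- and 3.09-fold enrichment. The matched ones had 4.50-fold at Foxf2 and 10.6- and 10.8-fold at Foxp1, so the ranges overlapped.

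**Figure D3:**
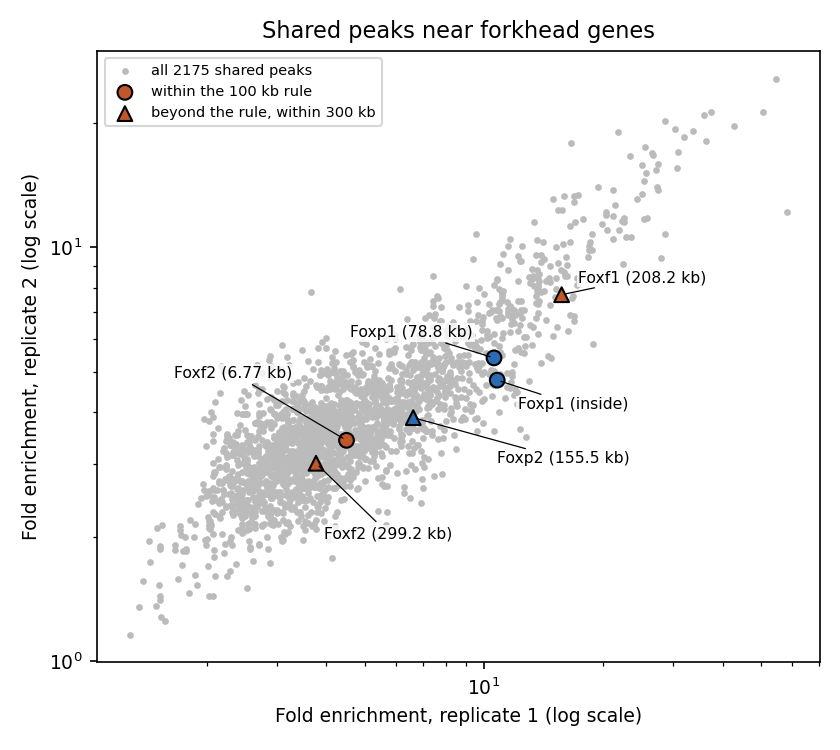
Fold enrichment of shared peaks in replicate 1 (horizontal) and replicate 2 (vertical), both on log scales, with all 2175 shared peaks in grey. Circles are peaks counted for a forkhead gene and triangles are shared peaks beyond the limit but within 300 kb, orange for mesenchymal and blue for epithelial genes, with the distance from the gene. The Foxp1 peaks stand above 10-fold in replicate 1, the Foxf2 peak stands near the middle of the cloud, and the peak 208.2 kb from Foxf1 is the highest marked.

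Mesenchymal members were next compared with epithelial ones. In replicate 1, 2 of 2 mesenchymal genes and 2 of 6 epithelial genes had a peak. In replicate 2 and among shared peaks it was 1 of 2 mesenchymal genes (Foxf2) and 1 of 6 epithelial genes (Foxp1). The difference in the share with a shared peak was 33.3 percentage points, and it rests on 1 gene in each class. Per Mb of territory there were 4.33 shared peaks for the mesenchymal genes, from 1 peak in 0.231 Mb, and 1.07 for the epithelial genes, from 2 peaks in 1.86 Mb. All protein-coding genes had 0.824. The highest shared folds ran the other way, with 4.50 in replicate 1 and 3.42 in replicate 2 at the mesenchymal Foxf2, and 10.8 in replicate 1 and 5.41 in replicate 2 at the epithelial Foxp1. No test was made, because genes are not replicates of a condition. With only peaks of at least 5-fold, or only peaks within 1 kb of a gene, the difference turned to −16.7 percentage points, because the Foxf2 peak was lost and a Foxp1 peak was not. Within 1 kb, 1 of the 9 genes had a shared peak, beside 3.32% of protein-coding genes. Counting Foxp1 as mesenchymal, since it is also known outside the epithelium, gave 66.7 points, and leaving the Foxp genes out of both classes gave 50.0 points.

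None of the counted peaks lay at a promoter. The peak of Foxf2 was the closest to a start site, and the next closest was the Foxf1 peak, 20.6 kb from the start site of the noncoding gene Gm33579. This is the common position in these lists, since 90.3% of shared peaks on chromosomes with listed start sites lay more than 5 kb from one. RefSeq promoter windows (GRCm38.p6, 250 bases before to 50 after a start site) were at hand for 5 of the 9 genes, with 9 windows in all, and no window held a summit. Of all 32851 windows, 57 held a replicate 1 summit. The windows that follow are shown because they are the promoters nearest to the shared peak of Foxf2 and to the intragenic peak of Foxp1, together with the internal Foxp1 promoter that has homeodomain core letters. They are written 5′ to 3′ on the strand of the gene, and capitals mark matches to the letters TAATTA (homeodomain core) or TGTTTA (forkhead core) on either strand.
Foxf2 promoter, chr13:31625566-31625865, plus strand: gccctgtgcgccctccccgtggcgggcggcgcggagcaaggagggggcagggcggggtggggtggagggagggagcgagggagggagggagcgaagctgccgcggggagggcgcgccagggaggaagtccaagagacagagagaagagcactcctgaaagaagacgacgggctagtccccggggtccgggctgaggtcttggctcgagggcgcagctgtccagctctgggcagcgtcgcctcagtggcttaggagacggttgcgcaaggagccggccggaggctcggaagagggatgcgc
Foxp1 most upstream listed promoter, chr6:99520944-99521243, minus strand: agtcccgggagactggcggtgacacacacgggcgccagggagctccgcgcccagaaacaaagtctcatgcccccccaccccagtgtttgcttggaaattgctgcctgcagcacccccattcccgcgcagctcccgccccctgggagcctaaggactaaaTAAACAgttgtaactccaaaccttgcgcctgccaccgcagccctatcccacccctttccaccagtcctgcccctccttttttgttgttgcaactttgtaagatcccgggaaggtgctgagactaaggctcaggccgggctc
Foxp1 internal promoter, chr6:99266466-99266765, minus strand: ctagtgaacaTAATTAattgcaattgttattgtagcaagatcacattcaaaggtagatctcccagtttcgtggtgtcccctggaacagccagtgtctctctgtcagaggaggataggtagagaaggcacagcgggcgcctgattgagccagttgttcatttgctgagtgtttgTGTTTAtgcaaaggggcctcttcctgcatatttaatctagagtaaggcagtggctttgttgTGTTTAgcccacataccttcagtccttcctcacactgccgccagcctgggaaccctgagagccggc
The Foxf2 window was 71.3% G and C and held none of the letters searched, and its start site was 6.77 kb from the shared summit. The most upstream listed Foxp1 promoter held 1 match to the forkhead letters and was 35.8 kb from the intragenic summit. The internal Foxp1 promoter, 48.7% G and C, held 1 match to TAATTA and 2 to TGTTTA, and its start site was 218.7 kb from the nearest summit in either list. Among the 9 member windows, TAATTA was in 1, TTATTA in 0, TGATNNAT (a PBX-HOX composite, N being any base) in 0 and TGTTTA in 4, all at Foxp1 or Foxa1. Over all 32851 windows the shares were 5.29% for TAATTA, 10.7% for TTATTA, 8.85% for TGATNNAT and 13.4% for TGTTTA, each on both strands. The peaks themselves were not searched, because no genome sequence was used here.

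Of 35 other forkhead genes, 4 had a replicate 1 peak, 3 a replicate 2 peak and 3 a shared peak (8.57%, beside 5.97% of protein-coding genes). Their median territory was 88.1 kb, beside 45.8 kb for all protein-coding genes. Per Mb of territory they had 0.868 shared peaks, close to the 0.824 of all protein-coding genes. Foxd3, a neural crest gene, had the highest, at 81.9 kb (chromosome 4, 99574089 to 99574713), where enrichment was 12.0-fold in the replicate 1 list and 4.55-fold in that of replicate 2. Foxn3 held a peak of 2.5- and 3.97-fold inside the gene. Foxd1, a gene of stromal and pericyte precursors, had a peak of 1362 bp at 62.2 kb with 1.93- and 2.48-fold enrichment. The Foxd1 and Foxn3 peaks were no longer shared with peaks limited to 1000 bp, with 50% reciprocal overlap or with summits within 100 bp. Foxq1, the neighbour of Foxf2, had a replicate 1 peak at 92.9 kb (4.54-fold) without a partner.

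Genes that act with these forkhead factors were grouped by role. The mesenchymal and vascular group held 18 genes, partners and targets of Foxf1 together with hedgehog pathway genes, which act upstream of it. Of these 18, 7 had a shared peak (Gli2, Ptch1, Smo, Tbx4, Tbx5, Fgf10 and Itga8), which is 38.9% beside 5.97% of all protein-coding genes. Gli1, Gli3, Bmp4, Wnt2, Acta2, Tagln, Pdgfra, Pdgfrb, Kdr, Tek and Stat3 had no shared peak. Among them, Gli3 and Tek had a peak in replicate 2 alone. Per Mb there were 3.28 shared peaks, beside 0.824 for all protein-coding genes. The groups were drawn up with earlier results of these data known, so this contrast is not independent support. Fgf10, the growth factor of branching, Tbx5, a T-box factor of the lung bud, and Itga8, an integrin gene of the mesenchyme, had peaks of 12.2-, 12.8- and 11.7-fold in the replicate 1 list, where the replicate 2 list had 7.41-, 6.09- and 4.72-fold. The Smo peak, at the hedgehog signal transducer gene, was 2.32-fold enriched in replicate 1 and 2.47-fold in the replicate 2 list, and covered 1033 bp in replicate 1. Of 14 epithelial partners and targets, Sox9 and Gata6 had a replicate 1 peak (14.3%, beside 10.4% of all protein-coding genes) and none had a replicate 2 or shared peak. Of 10 ciliogenesis genes, Gmnc had a replicate 1 peak (10.0%) and none had a shared peak. Of 10 Foxm1 targets 1 had a shared peak, Cenpf, a kinetochore gene, at 16.2 kb with 6.92- and 3.23-fold enrichment. Shares of 1 or 2 genes in groups this small are close to the background. The epithelial group had 1.4 Mb of territory and the ciliogenesis group 1.52 Mb, where all protein-coding genes had 0.824 shared peaks per Mb. Their lack of a shared peak is thus also close to the background. With the nearest of all RefSeq genes taken, the shared peaks of Fgf10 and Cenpf went to other genes, as did those of Foxd1, Foxd3 and Ctnnd2. Itga8 then kept 1 of its 2 shared peaks. A summit inside a gene stays with that gene, so the 11.7-fold peak, 15.3 kb outside Itga8, was lost. The peak that stayed was the weaker, at 3.78-fold in the replicate 1 list. Territories differed, with a median of 164.9 kb in the mesenchymal and vascular group, 93.0 kb in the epithelial, 65.8 kb in the ciliogenesis and 18.4 kb in the Foxm1 group, and their part in the counts was not tested. Gli2, Ptch1, Tbx4, Sox9, Gata6 and Gmnc, like Foxq1, were named after their values were seen. So were the genes of the mesenchymal and vascular group without a shared peak.

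**Figure D4:**
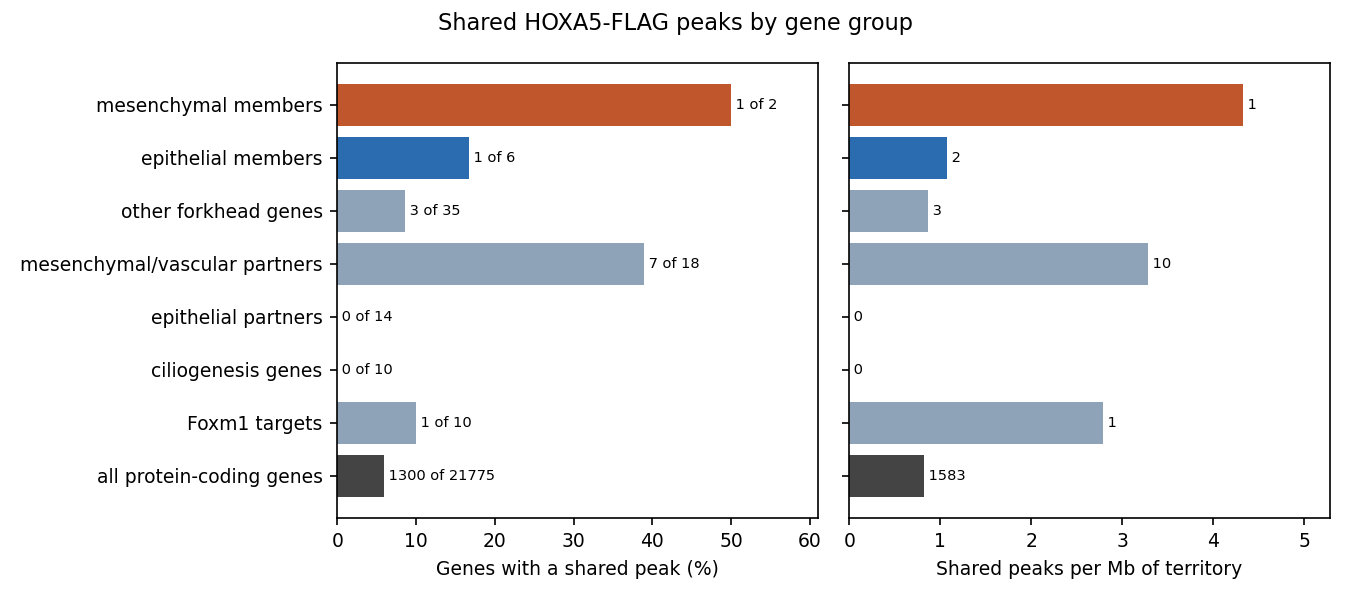
Share of genes with a shared peak in percent (left, with counts) and shared peaks per Mb of territory (right, with the number of peaks), for the mesenchymal and epithelial forkhead members, the other forkhead genes, 4 groups of partners and targets, and all protein-coding genes. The mesenchymal and vascular partners stand at 38.9% and 3.28 per Mb, and the bar of the mesenchymal members rests on 1 peak. The epithelial partners (1.4 Mb of territory) and ciliogenesis genes (1.52 Mb) stand at 0, which is close to the background for groups this small. The gene groups were drawn up with earlier results of these data known.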

How the data were processed

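Chromatin immunoprecipitation followed by sequencing was done by the authors on 2 HOXA5-FLAG immunoprecipitates, with 1 deposited peak list each, so peaks were called per sample. The build named is mm10, and MACS3 3.0.1, Bowtie2 2.5.2, bedtools 2.31.0, FastQC 0.12.1, SAMtools 1.18, deepTools and Trim Galore are the tools named, per the submitters' processing notes. Settings, their order and the control used in calling were not given in the sources used here. The deposited fold enrichment is a ratio that the authors computed at each summit. Their −log10 p (not used) and −log10 q were also deposited, with every −log10 q above 2, and the deposited score was not used. The files give no read counts, so depth is unknown and a weak site missing from a list may reflect it.

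Summits were assigned with Python 3.11.15, pandas 2.3.3 and numpy 2.4.6, and intervals came from scipy 1.17.1. Genes came from the RefSeq table of GRCm38.p6, the assembly of mm10, and all 9 symbols matched. Its 49599 genes used exclude 340 that start before 3 Mb (chromosome Y excepted), taken to be scaffold positions. A summit inside several genes counted for each. Territory was the span plus flanks of up to 100 kb, ending at the midpoint to the next gene. Peaks linked by overlap counted as 1 shared peak. Assignment, sharing and territory were tested on simulated data. The planned search of letters in peaks was made in promoter windows alone.

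Members, lists and tests were chosen with earlier results of these data known. Named genes were all members, other forkhead genes with a shared peak, up to 4 partners per group by rank of −log10 q, and 3 genes like the member with most shared peaks. No test across genes was made, and alternatives varied distance, nearest gene, thresholds, length, overlap, classes and replicates.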

Additional observations from a re-analysis of the deposited data

How the results depend on the processing

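Counts this small turn on single peaks. Counting genes within 50 kb or within 10 kb left 2 replicate 1 forkhead peaks, at 2 members, and 1 other forkhead gene. Of all protein-coding genes, 9.33% had a replicate 1 peak within 50 kb and 7.11% within 10 kb. For shared peaks, also at 2 members, these shares were 5.3% and 3.95%. Within 1 kb, each list and the shared set held 1 forkhead peak, at 1 member, with 1 other forkhead gene. Of all protein-coding genes, 3.32% had a shared peak within 1 kb. The difference between mesenchymal and epithelial members was then −16.7 points. A fold of at least 5 left 2 peaks in replicate 1, 1 in replicate 2 and 1 shared, at 1 member, with 0 other forkhead genes, 2 partners and again −16.7 points. Other forkhead genes with a shared peak numbered 7 when every gene within 100 kb was counted. They numbered 1 with the nearest of all RefSeq genes, with peaks of at most 1000 bp, with reciprocal overlap of 50% or with summits within 100 bp. For a fold of at least 5, for every gene within 100 kb and for these settings, the share of all protein-coding genes was not computed. Those counts thus stand without a background. Leaving out a replicate gave 3 to 5 forkhead peaks, 2 to 4 members and 33.3 to 66.7 points. The difference was 50.0 points with the Foxp genes in neither class and 66.7 with Foxp1 as mesenchymal. A window of 300 kb for any gene, chosen after seeing the data, gave 15 peaks in replicate 1, 6 in replicate 2 and 6 shared, at 4 members, with 66.7 points. In that window 16 of 35 other forkhead genes (45.7%) and 18 of 52 partners (34.6%) had a shared peak, beside 34.7% of all protein-coding genes. No paired analysis was possible because peak lists of the immunoprecipitates alone were analysed here and no test was made. Depth is unknown, so a peak missing from a list does not show that HOXA5 is absent there.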
